A study of Mus musculus with 6 samples.

Results

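The constitutive proteasome genes of the mouse liver were compared between mice without and with the double-stranded RNA receptor TLR3. The genes were taken by name, as those with a Psma, Psmb, Psmc, Psmd, Psme, Psmf or Psmg symbol and a number, without the interferon-inducible Psmb8, Psmb9, Psmb10, Psme1 and Psme2. Of 43 such genes on the array, 40 had a signal above the lowest value of the table on at least 1 array, out of 10347 genes with such a signal in all. Psma8, whose product belongs to the testis, Psmb11, whose product belongs to the thymus, and the assembly chaperone gene Psmg4 stood at that lowest value, 5, on all 6 arrays and gave no comparison. Each gene was read from the probe set with its symbol that had the highest mean signal, and values are log2 RMA signals.

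The series holds total liver RNA of 6 untreated mice aged 3 months, 3 labelled TLR3-/- and 3 labelled TLR3wt, with 1 array per mouse. The labels give C57Bl/6 as the strain of both groups and say that the animals were bred in-house under specific-pathogen-free conditions. How the TLR3-/- allele was made, and whether mice of both groups were littermates, is not stated in the labels. Loss of the receptor and any other difference between the colonies cannot be told apart. Tlr3 itself had no signal above 5 in any liver and so checks neither label. Of 10 hepatocyte markers 9 were measured, with a mean log2 signal of 12.08 to 12.11 in TLR3wt and 12.05 to 12.06 in TLR3-/- livers. Of these 9 genes 6 had a lower mean in TLR3-/- livers, where 39.1% of all genes did. The groups did not overlap in 4 of them, where 22.7% of all genes did not.

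The proteasome degrades proteins that carry a ubiquitin chain. Its 20S core is a barrel in which outer rings of alpha subunits gate the entry and inner rings of beta subunits carry the proteolytic sites. A 19S cap on the barrel binds the ubiquitin chain through non-ATPase subunits, removes it and threads the substrate through a ring of ATPases into the core. In cells exposed to interferon, 3 immunosubunits replace the 3 catalytic beta subunits, Psmb8 in place of Psmb5, Psmb9 in place of Psmb6 and Psmb10 in place of Psmb7. The transcription factor Nfe2l1 is known to raise the constitutive genes together when proteasome activity is short.

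Promoter windows are shown for catalytic subunits, an immunosubunit and Psmc6, so that the genes compared below can be seen; no link between these windows and the signals was tested. Windows of 250 bases before to 50 bases after a gene's start came from RefSeq (GRCm38.p6) and were found for 33 of the 40 genes, in 35 windows; Psmb1, Psmb2, Psmb7, Psmc3, Psmd3, Psmd7 and Psmg2 had no entry. In the windows of the catalytic subunits Psmb5 (chr14:54617946-54618245, minus strand) and Psmb6 (chr11:70525107-70525406, plus strand), capitals mark TGACNNNGC, the core of the antioxidant response element that Nfe2l1 and Nfe2l2 bind. In the window of Psmb8 (chr17:34197945-34198244, plus strand), capitals mark TTCNNNGAA, the core of the gamma-activated site bound by STAT factors, and TATAAA, here 237 bases before the gene start. In the window of the ATPase gene Psmc6 (chr14:45329574-45329873, plus strand), which had the largest group difference among the subunits of the assembled complex, they mark TGACNNNGC on the opposite strand and CCGGAA, the core that ETS factors bind.
Psmb5: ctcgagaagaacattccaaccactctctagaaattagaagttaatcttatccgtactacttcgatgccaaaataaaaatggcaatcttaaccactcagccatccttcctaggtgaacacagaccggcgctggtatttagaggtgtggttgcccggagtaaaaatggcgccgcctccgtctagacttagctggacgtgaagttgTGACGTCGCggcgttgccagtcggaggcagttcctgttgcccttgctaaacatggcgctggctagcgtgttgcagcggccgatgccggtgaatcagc
Psmb6: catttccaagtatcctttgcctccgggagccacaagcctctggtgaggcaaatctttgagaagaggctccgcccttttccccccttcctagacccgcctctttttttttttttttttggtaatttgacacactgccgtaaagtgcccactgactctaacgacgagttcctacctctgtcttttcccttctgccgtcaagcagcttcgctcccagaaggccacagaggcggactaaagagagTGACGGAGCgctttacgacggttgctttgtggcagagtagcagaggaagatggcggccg
Psmb8: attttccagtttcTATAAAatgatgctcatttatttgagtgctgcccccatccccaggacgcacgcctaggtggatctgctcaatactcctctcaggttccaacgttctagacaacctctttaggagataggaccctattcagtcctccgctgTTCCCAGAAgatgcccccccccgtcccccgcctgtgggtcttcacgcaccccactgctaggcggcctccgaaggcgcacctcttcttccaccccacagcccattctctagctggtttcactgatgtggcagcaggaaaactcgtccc
Psmc6: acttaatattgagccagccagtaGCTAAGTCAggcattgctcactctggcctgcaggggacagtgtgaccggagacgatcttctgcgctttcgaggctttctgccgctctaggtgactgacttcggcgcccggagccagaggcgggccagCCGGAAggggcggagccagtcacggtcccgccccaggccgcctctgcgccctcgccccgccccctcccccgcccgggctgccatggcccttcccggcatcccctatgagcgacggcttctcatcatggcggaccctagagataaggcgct

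Counted on both strands, CCGGAA was the string that set these windows apart in number: 60% of the 35 windows held it, in 20 of 33 genes, against 14.9% of all 32851 windows and 0 of the 5 interferon-inducible genes. The comparison was with all windows, not with windows of like base composition, and 5 genes are few for a share. TGACNNNGC stood in 17.1% of the windows, in Psmb5, Psmb6, Psmc6, Psmd12, Psmd9 and Psme4, against 12.4% of all windows. CCAAT stood in 34.3% against 37.4%, and TATAAA in 8.57% against 13.6%. The core of the interferon-stimulated response element, searched as a pair of TTTC strings with any 2 bases between them, stood in 8.57% against 3.44% and TTCNNNGAA in 5.71% against 8.3%; among the interferon-inducible genes the former was found in Psme1 and the latter in Psmb8. Each string was counted on its own, and matches of different strings can share bases, as those of CCGGAA and TTCNNNGAA can. A match describes these letters alone and shows no binding.

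Over the 40 genes the livers of both groups were close to each other. Limma called 0 of the 40 at an adjusted p of 0.05, where 9 of 10347 genes (0.087%) and 31 of 16639 probe sets (0.186%; 0.138% higher and 0.0481% lower) were called, and 1 of 40 (2.5%) had an unadjusted p under 0.05, where 15.7% of all genes did. The ordinary pooled-variance test also called 0, with 3 at an unadjusted p under 0.05. The share over all genes was not computed for that test. The differences, TLR3-/- minus TLR3wt, ran from -0.076 for Psmb4 to 0.27 for Psmg2, with a median of 0.05, and the median over all genes was 0.033. The mean was higher in TLR3-/- livers for 30 genes (75%) and lower for 10, beside 60.9% and 39.1% of all genes. Genes of like signal were closer. Among the 31 subunits of the core and its cap 71% had a higher mean, with a median difference of 0.055. The 1950 genes in their signal range had 68.4% and a median of 0.055. Without 1 mouse in turn the median over the 40 genes was 0.031 to 0.068. After quantile normalisation again 18 of the 40 had a lower mean and after centring each array on its median 17, so the count of higher means depends on the scaling. The share over all genes was not computed for these scalings, so whether the surplus over that share changes is not known.

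The intervals give the size of difference that these arrays leave possible. Among the 31 subunits of the core and its cap, the 95% intervals of limma (each for its own gene, not adjusted) had a median half-width of 0.152 on the log2 scale. Their lowest end was -0.25 for Psmc5 and their highest was 0.33 for Psma2, a fold of 1.19 downward and 1.26 upward. None of these 31 intervals left out 0. Over all 40 genes the highest end was 0.54 for Psmg3, a fold of 1.46, and the interval of Psmg2, 0.13 to 0.41, was the one that left out 0. The absolute difference had a median of 0.0634 over these subunits, against 0.0914 over the 1950 genes with a mean signal in the same range of 7.76 to 9.86. Their spread between mice of 1 group was small as well, with a median within-group SD of 0.064 against 0.0951 for the genes in that range. The largest absolute difference among the 31 was 0.133, and 33.3% of the genes in that range exceeded it. These are descriptions over genes that share 6 arrays, with no test.

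**Figure D1:**
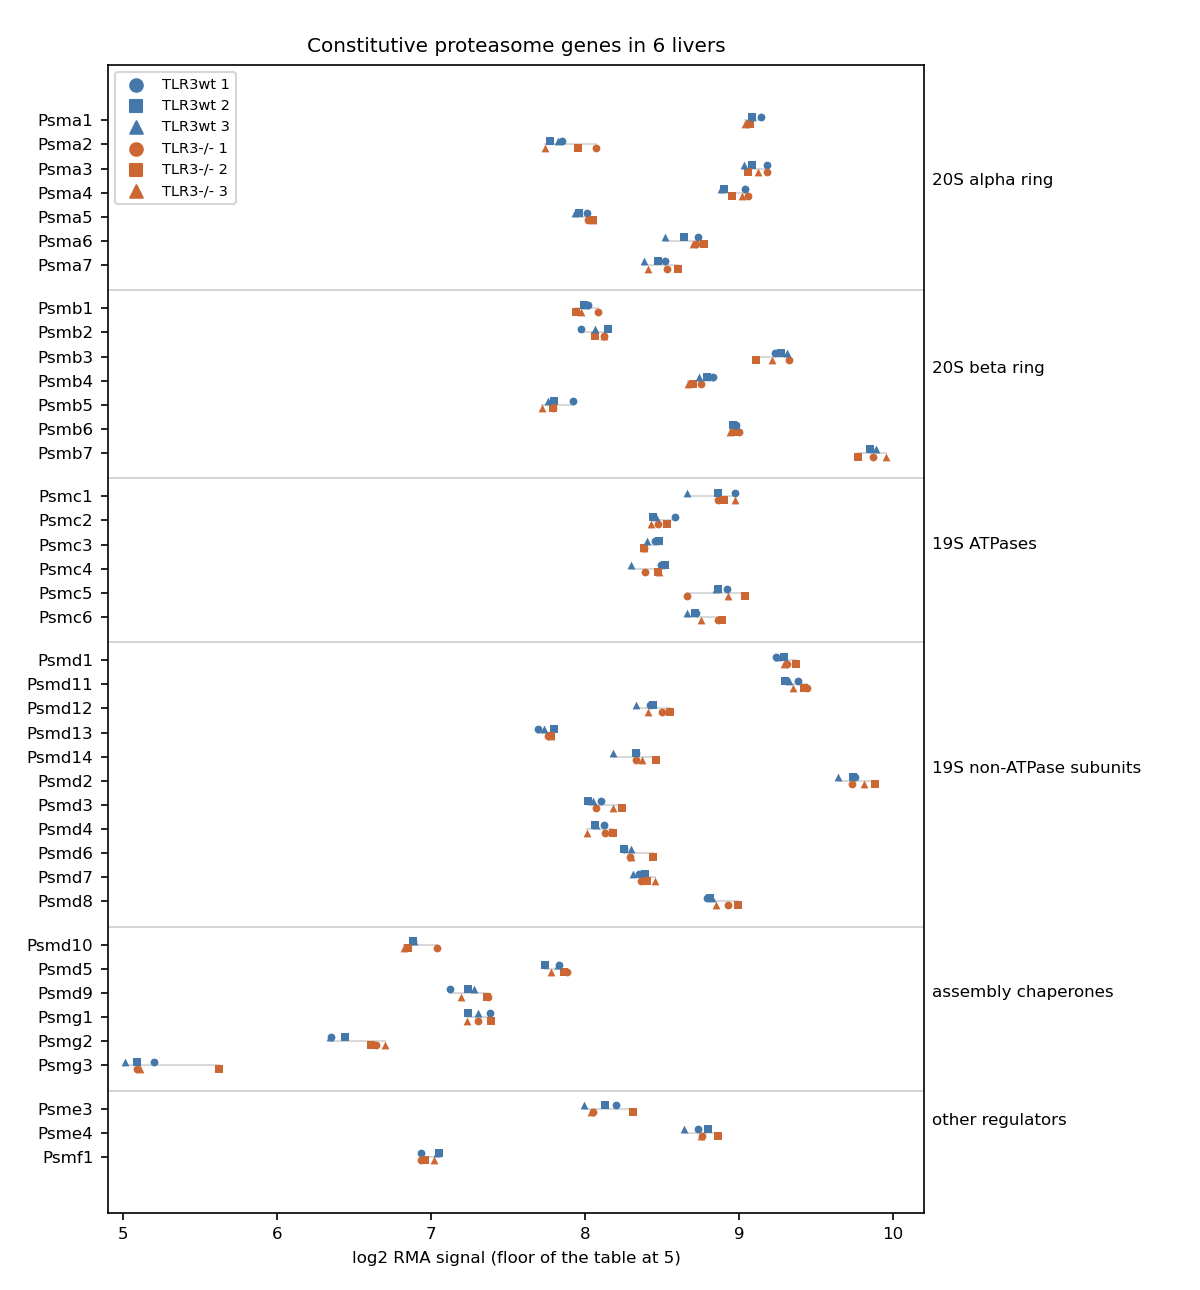
Log2 RMA signal (x axis, lowest possible value 5) of the 40 constitutive proteasome genes (rows, by role) in each liver, with TLR3wt mice in blue above and TLR3-/- mice in orange below each row and a marker shape for each replicate number. Signals of different genes come from different probe sets and are not to be ranked; within a row the points of both colours overlap for all but 6 genes.

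Of the 3 catalytic subunits, Psmb6 and Psmb7 had the same mean in both groups within 0.01 and Psmb5 had a difference of -0.062. Psmb6, which cleaves after acidic residues, gave 8.98, 8.96 and 8.98 in the TLR3wt livers and 9.0, 8.97 and 8.94 in the TLR3-/- livers, a difference of -0.0045 (95% interval -0.12 to 0.11, limma adjusted p = 0.974). Psmb7, with trypsin-like activity, gave 9.85, 9.85 and 9.89 against 9.87, 9.77 and 9.95, a difference of -0.00091 (-0.15 to 0.15, limma adjusted p = 0.996). In both genes the highest and the lowest of the 6 livers were TLR3-/- ones. Psmb5, with chymotrypsin-like activity, gave 7.92, 7.80 and 7.76 against 7.79, 7.79 and 7.72, a difference of -0.062 (-0.21 to 0.09, limma adjusted p = 0.703). TLR3wt replicate 1 was the highest liver for Psmb5. Replicate 2, at 7.80, lay just above the TLR3-/- livers, and replicate 3, at 7.76, lay within their range. Without TLR3wt replicate 1 the difference was -0.018.

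Among the beta subunits that have no active site, Psmb4 had the lowest difference of all 40 genes. It gave 8.83, 8.79 and 8.74 in TLR3wt and 8.75, 8.70 and 8.67 in TLR3-/- livers (difference -0.076, limma adjusted p = 0.571), and only TLR3-/- replicate 1 reached the TLR3wt range. Psmb3 gave 9.23, 9.27 and 9.31 against 9.32, 9.11 and 9.21 (-0.056, limma adjusted p = 0.761), with TLR3-/- replicate 1 the highest and replicate 2 the lowest of all 6, and without the latter the difference was -0.0056. The other probe set of Psmb3 had a mean of 8.71 in both groups (-0.0017, limma adjusted p = 0.994). Psmb1 and Psmb2 had differences of -0.0064 and 0.037. In all, 6 of 7 beta genes had a lower mean in TLR3-/- livers and 0 of 7 had groups that did not overlap, where 39.1% of all genes had a lower mean and 22.7% did not overlap. The median difference of the ring was -0.0064.

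The alpha subunits, which form the gate, had a median difference of 0.069, with 6 of 7 genes higher in the mean. Psma6 gave 8.73, 8.64 and 8.52 in TLR3wt and 8.72, 8.77 and 8.70 in TLR3-/- livers (difference 0.10, limma adjusted p = 0.562), where TLR3wt replicate 3 was the lowest liver. Psma5 gave 8.01, 7.96 and 7.93 against 8.02, 8.05 and 8.05 (0.074, limma adjusted p = 0.560), and the groups did not overlap. Its other probe set pointed the other way, with 7.72, 7.66 and 7.55 against 7.75, 7.55 and 7.33 (-0.098, limma adjusted p = 0.748), so the sign of Psma5 depends on the probe set. Whether either probe set also reads a near-identical copy was not tested. Psma1 was lower in every TLR3-/- liver by a small margin (9.06, 9.07 and 9.04 against 9.14, 9.08 and 9.08), with a difference of -0.037 and a limma adjusted p of 0.776. Psma2 had the widest interval of the ring, -0.12 to 0.33, since the TLR3-/- livers spread from 7.74 to 8.07.

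The ATPases of the cap unfold the substrate, and their differences had a median of 0.0042. Psmc6 gave 8.72, 8.71 and 8.66 in TLR3wt and 8.86, 8.89 and 8.75 in TLR3-/- livers, a difference of 0.13 or 1.10-fold (95% interval -0.01 to 0.28, limma adjusted p = 0.374). Every TLR3-/- liver lay above every TLR3wt liver for this gene. Psmc3 went the other way, with 8.45, 8.48 and 8.40 against 8.38 in each TLR3-/- liver, a difference of -0.064 (limma adjusted p = 0.622), and its groups did not overlap either. For Psmc5 the TLR3-/- livers lay far apart: they gave 8.66, 9.04 and 8.93 around TLR3wt values of 8.85 to 8.92, for a difference of 0.00085. Psmc1, Psmc2 and Psmc4 had differences of 0.079, -0.018 and 0.0075.

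The non-ATPase subunits, which bind and remove ubiquitin and scaffold the cap, had a higher mean in TLR3-/- livers in 11 of 11 genes, with differences of 0.025 to 0.11 and a median of 0.076. None was called (limma adjusted p 0.419 to 0.892), and in the genes of the same signal range as the core subunits 68.4% had a higher mean. After either scaling, quantile normalisation again or centring, 10 of the 11 genes did. The share in that signal range was not computed for these scalings. Psmd8, a lid subunit, gave 8.79, 8.81 and 8.82 in TLR3wt and 8.93, 8.99 and 8.85 in TLR3-/- livers (difference 0.11, 95% interval -0.03 to 0.25, limma adjusted p = 0.419), without overlap. Psmd3, also of the lid, gave 8.10, 8.02 and 8.05 against 8.07, 8.24 and 8.18 (0.11, limma adjusted p = 0.504), where TLR3-/- replicate 1 stayed within the TLR3wt range. The deubiquitinase Psmd14 had a difference of 0.11, the scaffold subunits Psmd1 and Psmd2 had 0.063 and 0.094, and the ubiquitin receptor Psmd4 had 0.025. The contrast between this group and the beta ring was not tested.

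The assembly chaperones held the gene with the smallest p of the 40. Psmg2, which with Psmg1 helps to build the alpha ring, gave 6.35, 6.44 and 6.34 in TLR3wt and 6.64, 6.61 and 6.70 in TLR3-/- livers. The TLR3-/- livers all lay above the TLR3wt livers, by 0.27 or 1.21-fold (95% interval 0.13 to 0.41, unadjusted p = 0.00288), and the gene did not pass over all probe sets (limma adjusted p = 0.151). Its partner Psmg1 gave 7.38, 7.24 and 7.30 against 7.30, 7.39 and 7.23, a difference of 0.0023. Psmg3 was close to the lowest value of the table, with 5.20, 5.09 and 5.01 against 5.09, 5.62 and 5.11 (0.17, limma adjusted p = 0.667), and without TLR3-/- replicate 2 its difference was -0.0019. Psmd9, a chaperone of the ATPase ring, gave 7.12, 7.24 and 7.28 against 7.37, 7.36 and 7.19 (0.093, limma adjusted p = 0.631). The other chaperones of that ring, Psmd5 and Psmd10, had differences of 0.045 and 0.019.

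Of the remaining regulators, Psme4, an alternative cap of the core, gave 8.73, 8.80 and 8.64 in TLR3wt and 8.76, 8.86 and 8.75 in TLR3-/- livers (difference 0.069, limma adjusted p = 0.687). Psmf1, first described as an inhibitor of the core, gave 6.93, 7.05 and 7.04 against 6.93, 6.96 and 7.02 (-0.039, limma adjusted p = 0.802). Psme3, a nuclear activator, had a difference of 0.026 with a 95% interval of -0.21 to 0.27. The groups overlapped in all 3.

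Over all 40 genes, the groups did not overlap in 6 (15%): Psma5, Psmc6, Psmd8 and Psmg2 higher, and Psma1 and Psmc3 lower, in TLR3-/- livers. The share over all genes was 22.7%, with 15.1% higher and 7.62% lower. After quantile normalisation again 9 of the 40 did not overlap, and the share over all genes was not computed for that scaling. The mice differed in where they stood: TLR3-/- replicate 2 was the highest liver for 17 of the 40 genes (42.5%) and TLR3wt replicate 3 the lowest for 16 (40%) and the highest for 0. Among genes in the signal range of the core subunits those shares were 24.4%, 32.3% and 13.2%. The mean of the 40 genes, relative to the TLR3wt mean, was 0.028, 0.0057 and -0.033 in TLR3wt replicates 1 to 3 and 0.043, 0.079 and 0.017 in TLR3-/- replicates 1 to 3. The mean over all genes was 0.033, 0.026 and 0.014 in the same TLR3-/- livers, and the part of array scaling in the proteasome means was not tested beyond the scalings above.

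**Figure D2:**
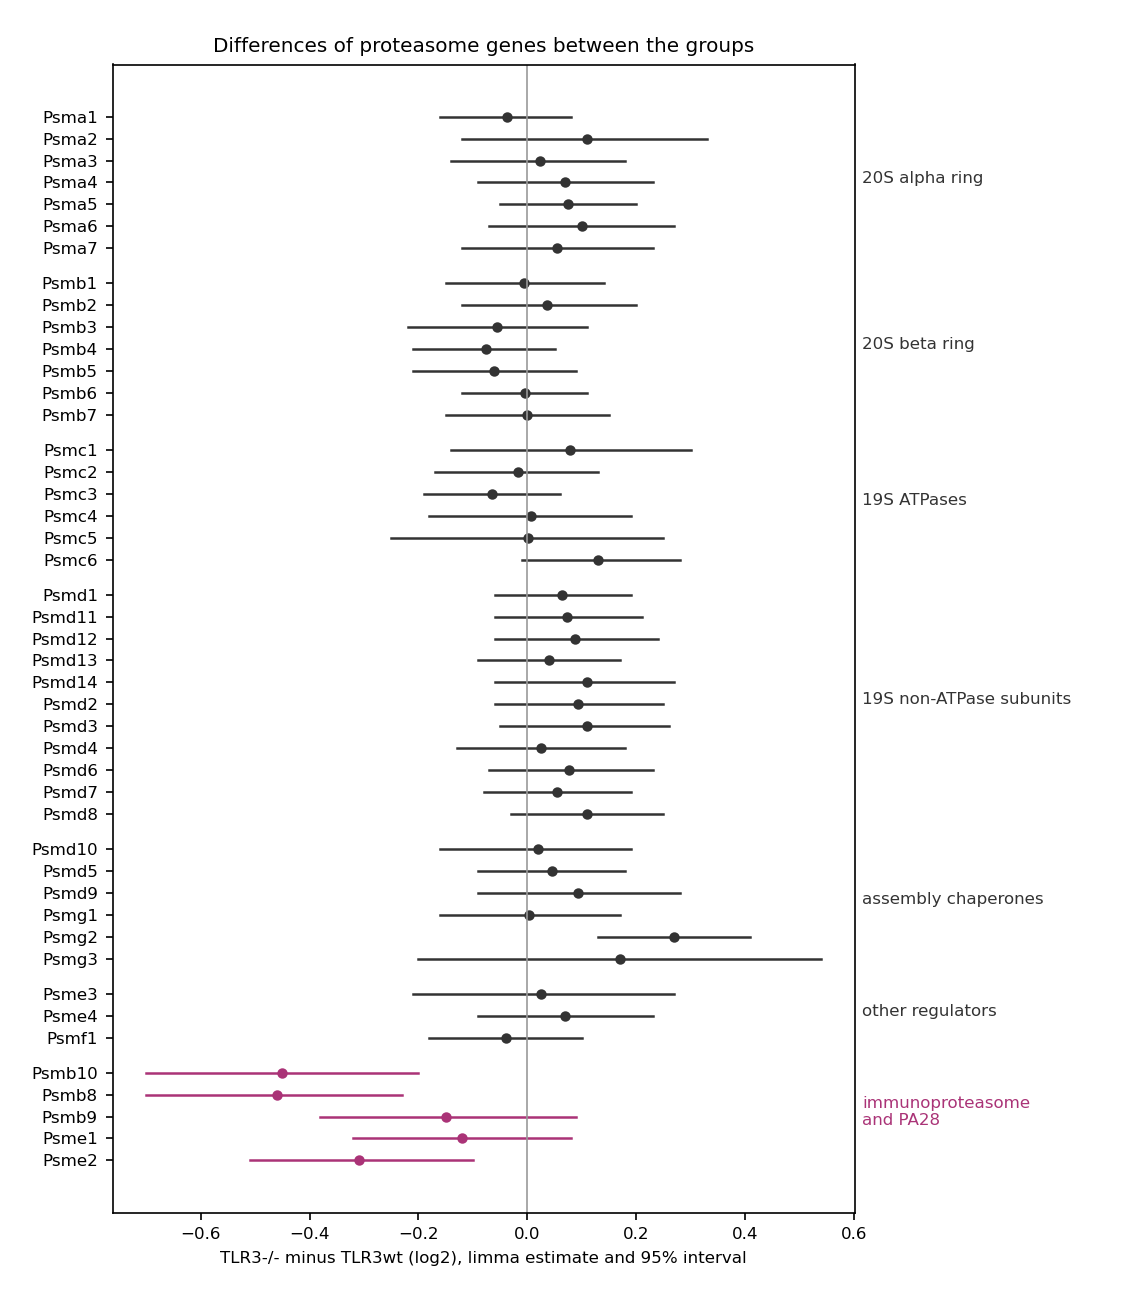
Difference between TLR3-/- and TLR3wt livers (x axis, log2) for each constitutive proteasome gene by role in grey, and for the interferon-inducible Psmb8, Psmb9, Psmb10, Psme1 and Psme2 in purple; points are limma estimates and bars 95% intervals from 3 mice per group. The interval of Psmg2 (0.13 to 0.41) is the one grey bar that leaves out 0, and the bars of Psmb8, Psmb10 and Psme2 lie below 0.

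Of the 5 interferon-inducible counterparts, Psmb8, Psmb10 and Psme2 were lower in every TLR3-/- liver than in any TLR3wt liver, as 7.62% of all genes were. Psmb9 and Psme1 overlapped between groups. Psmb8 gave 6.75, 7.04 and 6.76 in TLR3wt and 6.40, 6.31 and 6.46 in TLR3-/- livers (difference -0.46, 95% interval -0.70 to -0.23, limma adjusted p = 0.148), and Psmb10 gave 7.36, 7.46 and 7.55 against 7.03, 6.82 and 7.16 (-0.45, -0.70 to -0.20, limma adjusted p = 0.164). Psmb9 had -0.15, and the PA28 activator genes Psme1 and Psme2 had -0.12 and -0.31, and limma called 0 of these 5 (0.087% of all genes were called), with 3 at an unadjusted p under 0.05 (15.7% of all genes). Taking each immunosubunit relative to the constitutive subunit it replaces, on the same array, removes any shift shared by the array. Psmb8 minus Psmb5, relative to the TLR3wt mean, was -0.19, 0.22 and -0.03 in TLR3wt and -0.42, -0.50 and -0.28 in TLR3-/- livers, a difference of -0.40 without overlap. Psmb10 minus Psmb7 was -0.09, 0.02 and 0.07 against -0.43, -0.54 and -0.38, a difference of -0.45, also without overlap. Psmb9 minus Psmb6 was 0.07, 0.11 and -0.18 against -0.25, -0.19 and 0.02, a difference of -0.14, and the groups overlapped. The exact permutation test over 3 against 3 mice (two-sided) gave p = 0.1, 0.1 and 0.2 in that order, adjusted over the 3 pairs 0.15, 0.15 and 0.2, and 0.1 is the smallest p this design allows. Without 1 mouse in turn, Psmb8 minus Psmb5 ranged from -0.49 to -0.29, Psmb10 minus Psmb7 from -0.49 to -0.40 and Psmb9 minus Psmb6 from -0.23 (without TLR3wt replicate 3) to -0.085 (without TLR3wt replicate 2). Psmb9 minus Psmb6 was also -0.087 without TLR3-/- replicate 1 and -0.22 without TLR3-/- replicate 3.

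**Figure D3:**
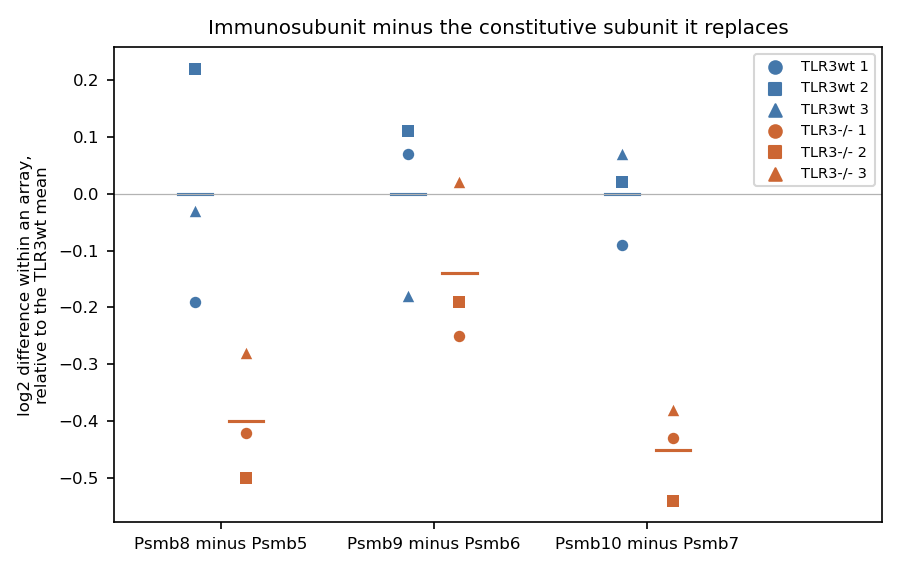
Log2 signal of an immunosubunit minus that of the constitutive subunit it replaces, within each array and relative to the TLR3wt mean (y axis), for the 3 pairs; a point is 1 mouse, with TLR3wt in blue and TLR3-/- in orange, and a bar is the group mean. The TLR3-/- points of Psmb8 minus Psmb5 and of Psmb10 minus Psmb7 lie below all TLR3wt points, and those of Psmb9 minus Psmb6 overlap with them.

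Markers of macrophages, which in liver are largely Kupffer cells and express immunosubunits, also had lower values. Of 18 measured marker genes 17 had a lower mean in TLR3-/- livers (median difference -0.80), where 39.1% of all genes did. Limma called 0 (0.087% of all genes) and 16 had an unadjusted p under 0.05 (15.7% of all genes). Their mean signal was 7.31 to 7.75 in TLR3wt and 6.47 to 7.02 in TLR3-/- livers, with Clec4e and Cd14 at 5 on all arrays. Of the lymphocyte markers, 9 of 10 on the array stood at 5 throughout. Of 10 endothelial markers 5 had a lower mean (median difference -0.019), and of 8 measured stellate markers 5 did (-0.045). In each of these 2 lists the groups did not overlap in 2 genes, where 22.7% of all genes did not, and limma called 0. In whole liver, fewer cells of a type and less RNA per cell cannot be told apart, and the part of these markers in the immunosubunit values was not tested. The constitutive subunits Psmb5, Psmb6 and Psmb7 had differences of -0.062, -0.0045 and -0.00091 in the same livers.

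**Figure D4:**
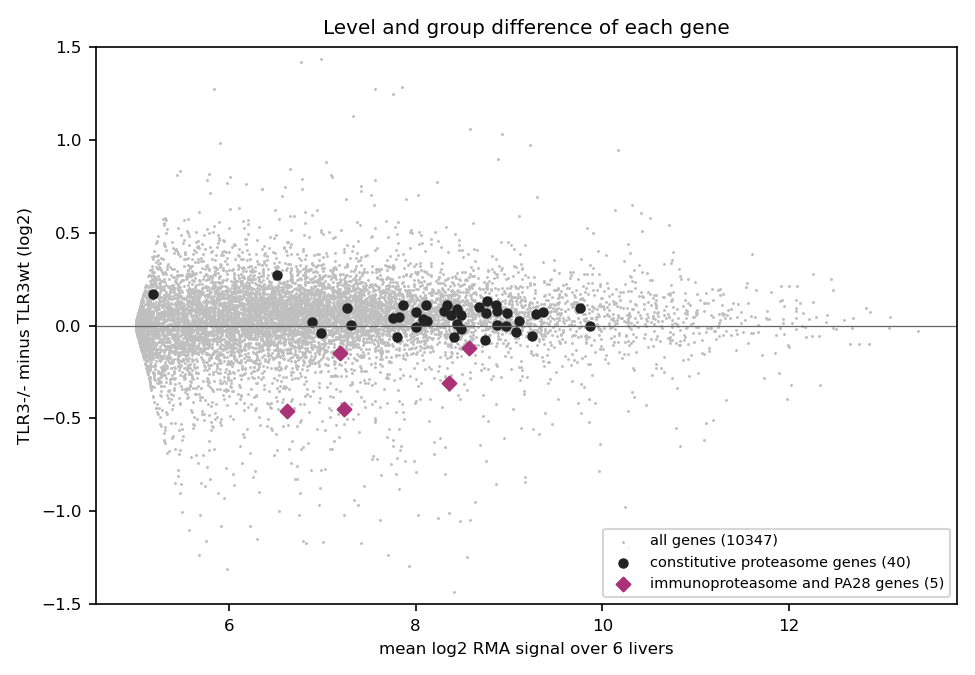
Mean log2 RMA signal over 6 livers (x axis) and difference between TLR3-/- and TLR3wt livers (y axis, log2) for 10347 genes in light grey, the 40 constitutive proteasome genes in black and the 5 interferon-inducible ones as purple diamonds; 20 genes lie beyond the plotted range of 1.5 in either direction. The black points lie between -0.076 and 0.27.

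Outside the Psm names, 27 genes that serve the proteasome were measured from a list of 37 names. Limma called 0 of them higher and 0 lower; 16 had a higher and 11 a lower mean, 3 had an unadjusted p under 0.05 (15.7% of all genes did), and the median difference was 0.063. The groups did not overlap in 5 of the 27, where 22.7% of all genes did not. Zfand5, a zinc-finger protein that stimulates the proteasome, had the largest difference: it gave 7.79, 7.58 and 7.76 in TLR3wt and 8.28, 8.19 and 8.14 in TLR3-/- livers, 0.50 or 1.41-fold (95% interval 0.31 to 0.68, limma adjusted p = 0.101). The groups did not overlap, and the difference was larger than that of any of the 40 subunit, chaperone and regulator genes. The transcription factor gene Foxo4 gave 6.30, 6.22 and 6.31 against 6.42, 6.44 and 6.49 (0.17, limma adjusted p = 0.248). Ngly1, the glycanase that processes Nfe2l1, gave 7.61, 7.66 and 7.44 against 7.71, 7.76 and 7.78 (0.18, limma adjusted p = 0.341), and Faf2, a cofactor of the segregase p97, gave 7.42, 7.43 and 7.33 against 7.56, 7.51 and 7.47 (0.12, limma adjusted p = 0.382). These 4 were taken for the smallest p of the list, so their separation is part of the choice.

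Other genes of the list, chosen after their values were seen, included the regulators of the pathway. Nfe2l1 gave 8.16, 8.13 and 8.01 in TLR3wt and 7.95, 8.11 and 8.10 in TLR3-/- livers, a difference of -0.046 (95% interval -0.22 to 0.13, limma adjusted p = 0.813). Nfe2l2, its relative in oxidative stress, had 0.27 (-0.06 to 0.59, limma adjusted p = 0.414), with TLR3wt replicate 1 the lowest of its livers. Pomp, the maturation factor of the core, gave 9.65, 9.62 and 9.67 against 9.52, 9.55 and 9.59 (-0.091, limma adjusted p = 0.465), lower in every TLR3-/- liver. The segregase gene Vcp had a difference of 0.022.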

How the data were processed

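RNA from 6 whole livers was hybridised to Affymetrix arrays, 1 for each mouse. The deposited values are log2 signals; the submitters' processing notes name RMA and Affymetrix Expression Console as the authors' tools. RMA corrects background, normalises by quantiles and summarises probe sets. The lowest value is 5 on every array and held 57.2% to 57.6% of its values; the labels do not say what set it, and differences of genes near it are understated. The proteasome genes and the 5 interferon-inducible ones were named from the array annotation. The set of all genes and the gene lists used the RefSeq symbol of the same gene identifier where there was one. Some list names were matched through synonyms. Groups came from sample titles, the table held 0 columns of other samples, and the number of arrays limits precision.

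Of 35557 probe sets, the 16639 above 5 on at least 1 array were fitted with limma 3.58.1 in R 4.3.3 (lmFit, eBayes, two-sided, Benjamini-Hochberg over all of them, threshold 0.05, group as the only term; prior degrees of freedom 2.2), which called 31 probe sets (0.186%), 23 higher and 8 lower. The members and lists were chosen with earlier results of these data known. Values in every mouse are given for the 2 members of each role with the smallest p, the catalytic subunits, and the 5 highest and 5 lowest differences; for the pathway list, the 4 genes with the smallest p. Other genes given by mouse (Psma1, Psma2, Psmc5, Psmg1 and the last paragraph's) and the 2 interferon motifs were chosen after seeing the values. A simulated version of this comparison, with 16635 probe sets of which 200 differed by a known amount, checked the procedure: 47.8% of changes of 0.5 on the log2 scale were recovered, 91% of 1 and 97% of 2, with 6 false calls among 163. Differences as small as those of most proteasome genes were not simulated. Same-numbered mice did not deviate together (correlations 0.0477, -0.0119 and -0.0633), so the numbers are not treated as pairs. Alternatives are given in the closing section.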

Additional observations from a re-analysis of the deposited data

How the results depend on the processing

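Over 17 alternatives, 0 of the 40 proteasome genes and 0 of the 27 pathway genes were called by limma in any, and none of the 25 named genes passed (smallest adjusted p 0.0853). The 31 calls over all probe sets became 0 with the probe sets at the lowest value included, 18 with those above it on all arrays, 3 with identical probe sets entered once, 2 by the ordinary pooled-variance test, 9 after quantile normalisation again, 14 after centring and between 0 and 13 without 1 mouse. The median difference of 0.05 over the proteasome genes was 0.01 after quantile normalisation again and 0.019 after centring, with 18 and 17 genes lower in the mean in place of 10, and the difference of the mean over the genes was 0.0098 and 0.015; array scaling is what these alternatives change. Without 1 mouse, the genes without overlap numbered 6 to 16. Groups of fewer mice overlap less, and the share over all genes was not computed for these sets. Members with an unadjusted p under 0.05 numbered 4 with all probe sets and 3 by the ordinary pooled-variance test. They numbered 0 of 38 in the brighter part, which left out Psmg2, the 1 gene with such a p in the main fit. Without 1 mouse they numbered 1 to 3 (3 without TLR3-/- replicate 3). The shares over all genes were not computed for these alternatives, so these counts have no background beside them. Psma5 was -0.012 with the mean of its probe sets. With each mouse left out in turn, Psmb7 ranged from -0.043 to 0.044 (0.011 for TLR3wt replicate 3 left out, 0.044 for TLR3-/- replicate 2), Psmb6 from -0.019 to 0.011 (the latter for TLR3-/- replicate 3) and Psmg3 from -0.0019 (for TLR3-/- replicate 2) to 0.26; the cause was not tested. The replicate number as a block left the median at 0.05 and 0 genes called, and took the 31 calls over all probe sets to 4. The number of 19S non-ATPase genes with a higher mean was 10 or 11, and of beta genes with a lower mean 4 to 7.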
